A study of Mus musculus with 4 samples.

Results

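General capillary cells are the endothelial cells that line most of the capillary bed of the lung alveolus, and they were taken here from single-cell RNA profiles of whole mouse lung by a gate on marker transcripts. Of 28168 cells that passed quality limits in 4 libraries, 446 met the gate: 153 in placebo 1, 99 in placebo 2, 125 in tamoxifen 1 and 69 in tamoxifen 2. A member had UMIs (unique molecular identifiers, each counted as 1 captured transcript) for at least 2 of the 4 pan-endothelial genes Pecam1, Cdh5, Cldn5 and Egfl7 and for at least 1 of the 5 genes Gpihbp1, Plvap, Aplnr, Kit and Cd93. It had fewer than 2 UMIs of Car4 and Ednrb together, fewer than 2 of Vwf, and none of Gja5, of the leukocyte gene Ptprc or of the epithelial gene Epcam. The members were thus chosen by their measured UMIs of these genes, so the levels of these genes describe how the cells were chosen and were not tested between classes.

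The mice were females of the FVB/NJ strain that carried the polyoma middle T oncogene under the mouse mammary tumour virus promoter, a transgene that is driven mainly in mammary epithelium and gives mammary tumours that spread to the lung. All 4 mice carried it, so no lung without the transgene was measured. A pellet of 5 mg tamoxifen made for release over 60 days, or a placebo pellet, was placed at 8 weeks of age, and lungs were taken 5 weeks later, with 2 mice in each group. Lungs were perfused, digested and profiled with a 5′ droplet assay, 1 library a mouse. The libraries held 32646505 to 37285982 UMIs in all, and the members' summed counts came to 550012, 322771, 454197 and 199314 UMIs in placebo 1, placebo 2, tamoxifen 1 and tamoxifen 2. No member barcode was shared between libraries.

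The alveolar capillary wall has a pair of endothelial cell kinds. Aerocytes, marked by Car4, Ednrb and Apln, spread thinly over the gas exchange surface, whereas general capillary cells, marked by Gpihbp1, Plvap, Cd93 and the apelin receptor Aplnr, take up lipid from lipoproteins, meet leukocytes and act as progenitors after injury. Apelin made by aerocytes can act on Aplnr of general capillary cells, and VEGF (the endothelial growth factor) and angiopoietin signals reach both through Kdr and Tek. Tamoxifen binds the oestrogen receptors and also the sterol-processing protein Ebp.

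The label markers were present in every mouse. Gpihbp1, which carries lipoprotein lipase to the capillary lumen, was at 1785, 2618, 1625 and 1866 CPM (UMIs of the gene per 1000000 UMIs of the class's sum) in placebo 1, placebo 2, tamoxifen 1 and tamoxifen 2. Plvap, a protein of the diaphragms of caveolae and fenestrae, was at 3344, 4653, 3547 and 3452 CPM. Both were highest in placebo 2. Cd93, a receptor of the basement membrane protein Mmrn2, was at 1027, 1159, 967 and 1069 CPM, a narrow range over the mice. Aplnr was the most uneven of the 4, at 320, 204, 271 and 156 CPM, and Kit, the stem cell factor receptor, was at 420, 418, 491 and 462 CPM. In B cells, gated for comparison, the 4-mouse means were 11.1 CPM for Gpihbp1, 15.4 for Plvap, 11.1 for Cd93 and 1.17 for Aplnr.

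**Figure D1:**
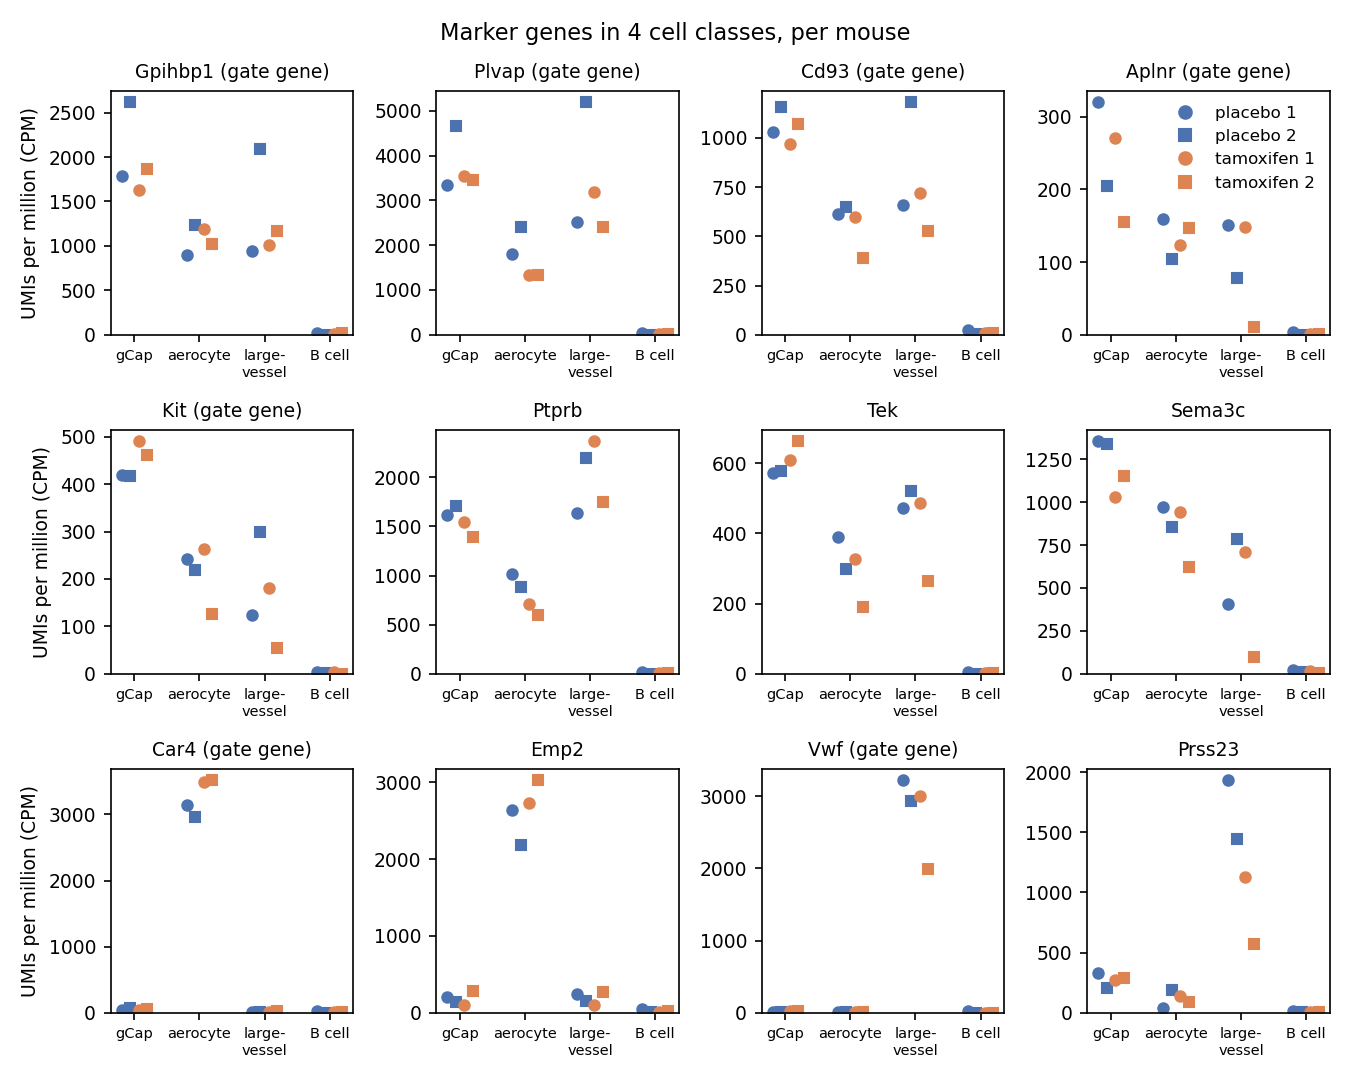
Levels of 12 marker genes (vertical axes, CPM) in general capillary (gCap), aerocyte, large-vessel and B cells, 1 point a mouse. Gate genes are named as such and their differences between the endothelial classes were fixed by the choice of cells. Ptprb and Tek, which the gate did not use, sit higher in all 4 general capillary sums than in all 4 aerocyte sums.

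Per cell, a UMI of Plvap was found in 90.8%, 89.9%, 90.4% and 89.9% of members of the 4 mice and of Gpihbp1 in 87.6%, 83.8%, 76.0% and 82.6%. Aplnr was seen in 55.6%, 36.4%, 43.2% and 34.8%. At 1000 UMIs per cell, after 30, 27, 29 and 14 shallower members were left out, the Aplnr shares were 30.9%, 11.1%, 20.8% and 16.4%, against 15.1%, 6.90%, 7.84% and 14.3% of aerocytes and at most 0.149% of B cells. Median depth was 2839, 2412, 2721 and 2054 UMIs in members and 4946, 6342.5, 5359 and 4560.5 in aerocytes. The gate sets upper limits on 6 genes. With cells thinned to 1000 UMIs before the gate, and shallower cells left out, 164, 117, 128 and 68 cells met it. They made up 62.8%, 55.5%, 65.3% and 57.1% of gated endothelial cells, against 50.2%, 41.9%, 55.1% and 49.3% without thinning. How much of the depth gap the gate brings was not tested.

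All 5 of the gate's capillary genes were detected in 141 members and only 1 of them in 54, whose median depth was 1436.5 UMIs against 4259. Those 54 cells held Plvap at 283 CPM and Gpihbp1 at 185 CPM, against 4535 and 2343 CPM in the 141. They also held Ccl21a, a chemokine of lymphatic vessels, at 2750 CPM, while the 141 cells had none. The thresholds were passed narrowly by some cells on both sides. The 81 members with 1 UMI of Car4 or Ednrb had Plvap at 4081 CPM and Emp2, an aerocyte gene, at 227 CPM, and the 30 cells left out with 2 such UMIs had 4469 and 104 CPM. The 23 members with 1 Vwf UMI had Plvap at 4647 CPM and the 9 cells left out with 2 had 3882 CPM. The 43 cells that met every other condition but had none of the 5 capillary genes held Ptprb, an endothelial phosphatase, at 184 CPM, against 240 CPM in the members with 1.

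Lymphatic endothelial cells, with at least 2 of Prox1, Mmrn1, Ccl21a, Reln and Pdpn, made up 4, 4, 5 and 1 members, 3.14% of the 446. A further set carried at least 3 genes of a list for another cell type: platelet genes in 15, 2, 3 and 7 cells, fibroblast genes in 6, 2, 10 and 2, and pericyte or smooth muscle genes in 3, 3, 3 and 1. With macrophage, neutrophil, mesothelial and rarer cells, 71 members (29, 11, 21 and 10, or 15.9%) had such a mark. List genes also made by endothelial cells or abundant as free RNA, among them Gsn, Npnt and Lyz2, were not used to mark cells. A doublet score of 0.25 or more was given to 3, 0, 2 and 0 members. The main counts were repeated on the other 375 members.

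General capillary cells made up 2.03% of kept cells in placebo 1 (exact 95% binomial interval 1.73 to 2.38), 1.54% in placebo 2 (1.25 to 1.87), 1.82% in tamoxifen 1 (1.51 to 2.16) and 0.944% in tamoxifen 2 (0.735 to 1.19). Tamoxifen 2 was the lowest, and tamoxifen 1 lay between the placebo mice. The means were 1.78% ± 0.351 with placebo and 1.38% ± 0.617 with tamoxifen (SD, n = 2 each), a difference that an exact two-sided permutation test over mice gave p = 0.666667, where 0.333333 is the smallest p that 2 mice against 2 allow. Among gated endothelial cells the share was 50.2%, 41.9%, 55.1% and 49.3%, with means of 46.1% ± 5.81 and 52.2% ± 4.09 (SD, n = 2 each, exact permutation p = 0.666667). All gated endothelial cells together were 4.05%, 3.66%, 3.30% and 1.92% of kept cells, again lowest in tamoxifen 2. Without tamoxifen 2 the difference in the share of kept cells was 0.0327 percentage points, in the other direction. Without the 71 marked cells the shares of endothelial cells were 44.9% and 39.1% against 50.5% and 45.4%, which do not overlap (exact permutation p = 0.333333). That setting was added after seeing the data and left marked aerocyte and large-vessel cells in the denominator. With cells thinned to 1000 UMIs before the gate, a planned setting, the shares were 62.8% and 55.5% against 65.3% and 57.1%, which overlap.

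**Figure D2:**
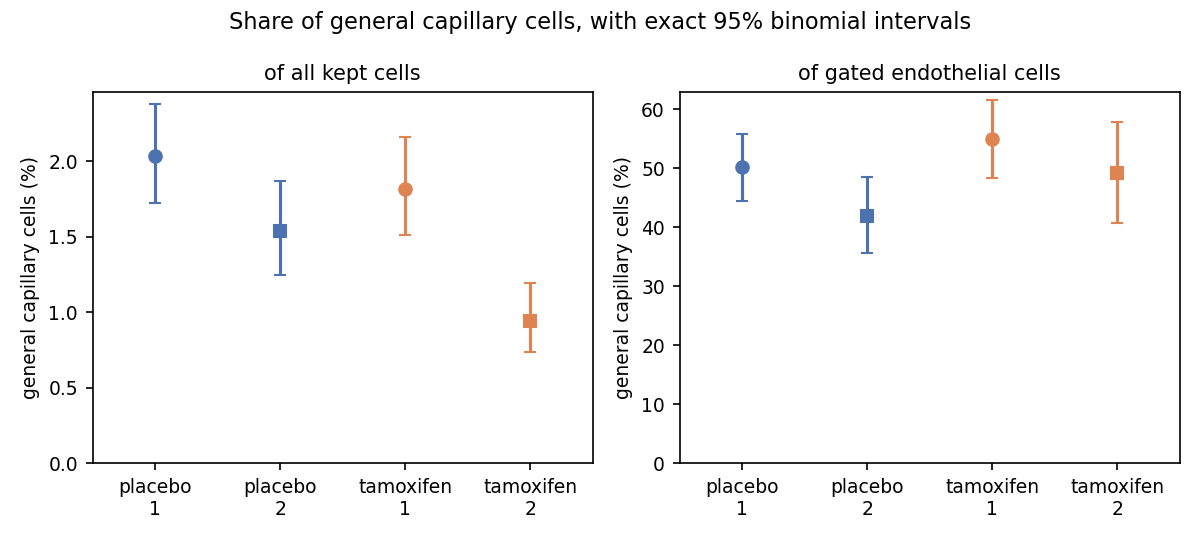
Share of general capillary cells in each mouse (vertical axes, percent, from 0), of all kept cells on the left and of gated endothelial cells on the right, with exact 95% binomial intervals that cover counting error only. On the left, tamoxifen 2 sits at 0.944% and the other mice between 1.54% and 2.03%, and on the right the groups overlap.

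The comparison with aerocytes asked which transcripts outside the gate separate the members from the other capillary cell of the same mice. Aerocytes were gated with at least 2 UMIs of Car4 and Ednrb together, and numbered 91, 92, 54 and 44. UMIs were summed per class and mouse and compared with edgeR's quasi-likelihood test with the mouse as a block, and a gene was called at a Benjamini-Hochberg adjusted p under 0.05 over all 5963 genes tested. Of these 385 (6.46%) were higher and 373 (6.26%) lower in general capillary cells. DESeq2 called 195 and 212, and leaving out tamoxifen 1 gave 203 and 250. Without the 71 marked members, and such cells among aerocytes, 483 and 446 of 5127 genes were called, 653 of them shared with the calls above. The genes tested were not used to gate but were read in the same cells. CPM values from here on are scaled with edgeR's TMM factors within each comparison, and classes cut from the same libraries share free RNA and batch.

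Known general capillary markers that the gate did not use were mostly higher. Of 19 tested, 10 were called higher and 3 lower, with a median log2 difference of 0.54 against 0.01 over all genes. The share of all genes tested was 6.46% higher and 6.26% lower. Tek, the angiopoietin receptor, was at 570, 602, 606 and 698 CPM in general capillary cells and at 370, 298, 315 and 190 CPM in aerocytes, in the order placebo 1, placebo 2, tamoxifen 1, tamoxifen 2. The classes did not overlap, and the log2 difference was 1.06 ± 0.16 (SE, adjusted p = 0.0005). Ptprb, the phosphatase that restrains Tek, was at 1610, 1781, 1540 and 1466 CPM against 960, 885, 686 and 597 CPM (log2 difference 1.04 ± 0.10, adjusted p = 1.36e-05). Sema3c, a secreted guidance protein, differed less, at 1349, 1399, 1026 and 1217 CPM against 925, 854, 909 and 623 CPM (log2 difference 0.59 ± 0.12, adjusted p = 0.00362). The other markers called higher were Edn1 (endothelin, log2 difference 1.59), Cxcl12 (a chemokine that holds leukocytes and progenitors, 1.30), Glp1r (the incretin receptor, 1.18), Bmp6 (1.18), Sox17 (0.92), Itga1 (0.75) and Hilpda (a lipid droplet protein, 0.54). Nrp1, Clic4 and Adgrl2 went the other way, and Nrp1, a VEGF co-receptor, was at 250 to 356 CPM in general capillary cells and 677 to 969 CPM in aerocytes (log2 difference -1.41 ± 0.13, adjusted p = 9.33e-06). The most abundant of the markers, Epas1, a hypoxia-inducible factor, and Tmem100, a membrane protein downstream of BMP signals, were not called, at 2518 to 3782 against 2158 to 2949 CPM (0.23 ± 0.09, adjusted p = 0.122) and at 1534 to 2127 against 1571 to 1900 CPM (0.06 ± 0.09, adjusted p = 0.78). Without the 71 marked cells 13 were higher and 3 lower.

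Aerocyte genes outside the gate were lower as a group, 11 of 13 tested, where 6.26% of all genes were lower. Their median log2 difference was -2.07. Igfbp7, a secreted protein of capillary matrix, was at 1188, 1250, 1485 and 1402 CPM in general capillary cells and at 6220, 6324, 6722 and 8087 CPM in aerocytes (log2 difference -2.36 ± 0.09, adjusted p = 4.77e-09). Emp2, a tetraspan membrane protein, was at 204, 152, 98.9 and 302 CPM against 2510, 2181, 2636 and 3027 CPM (-3.86 ± 0.18, adjusted p = 2.79e-08). Each aerocyte sum was above every general capillary sum for both genes. Chst1, Fibin and the transcription factor Tbx2 differed by -4.80, -3.76 and -3.35 on the log2 scale. Among the 12 largest differences of this direction were also Cdkn2a (-5.45) and Cdkn2b (-4.69), inhibitors of the cell cycle at the same locus, which were at most 6.48 CPM in any general capillary sum and at 63.2 to 152 CPM in aerocytes. Alpl, an alkaline phosphatase, was at 0 to 9.71 CPM against 97.0 to 190 CPM.

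Of 13 tested genes of VEGF, angiopoietin and apelin signalling, 6 were higher and 3 lower. Among all genes tested 6.46% were higher and 6.26% lower. Vegfa, the growth factor, was at 423, 657, 347 and 582 CPM in general capillary cells and at 234, 242, 153 and 199 CPM in aerocytes (log2 difference 1.24 ± 0.14, adjusted p = 3.65e-05), while its main receptor Kdr was at 409, 311, 308 and 317 CPM against 1592, 1032, 1247 and 1496 CPM (-1.98 ± 0.10, adjusted p = 5.25e-08). Flt1, the decoy receptor, was at 437 to 577 CPM against 521 to 636 CPM and was not called (adjusted p = 0.267). Apln, the ligand of Aplnr, was at 6.48 to 21.7 CPM in general capillary cells and at 186 to 231 CPM in aerocytes, with no overlap between the classes (-3.68 ± 0.22, adjusted p = 1.72e-07). Of 10 Notch genes 5 were higher and none lower, among them the target Hey1 (log2 difference 1.44) and the receptor Notch4 (0.69). Of 6 arterial markers tested 5 were higher, Hey1, Gja4, Efnb2, Sox17 and Mgp.

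To show the proximal sequence of genes that set the classes apart on each side, 120 bases upstream of the annotated start follow for Sema3c and Tek, higher in general capillary cells, and for Apln and Kdr, lower in them, as listed by RefSeq. Capitals mark GGAA or its reverse complement TTCC, the core read by ETS factors, searched on both strands.
Sema3c (GRCm38.p6 chr5:17574696-17574815, plus strand): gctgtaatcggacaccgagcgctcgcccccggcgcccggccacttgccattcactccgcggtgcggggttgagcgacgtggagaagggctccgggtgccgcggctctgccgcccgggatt
Tek (GRCm38.p6 chr4:94739169-94739288, plus strand): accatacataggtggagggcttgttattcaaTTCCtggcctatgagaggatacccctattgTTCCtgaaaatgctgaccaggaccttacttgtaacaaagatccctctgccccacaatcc
Apln (GRCm38.p6 chrX:48034854-48034973, minus strand): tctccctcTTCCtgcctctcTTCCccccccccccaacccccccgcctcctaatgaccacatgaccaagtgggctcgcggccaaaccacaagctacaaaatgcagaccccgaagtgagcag
Kdr (GRCm38.p6 chr5:75978456-75978575, minus strand): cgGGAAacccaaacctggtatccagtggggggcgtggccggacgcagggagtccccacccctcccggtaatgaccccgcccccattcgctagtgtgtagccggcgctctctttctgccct
The core occurred 0, 2, 2 and 1 times, and 73.4% of 32851 promoter windows of the same length held it at least once, with a median of 1. Gpihbp1, Plvap, Cd93 and Aplnr had no entry in the table. In the GRCm38 annotation Gpihbp1 lies at chr15:75596628-75599481, Plvap at chr8:71497765-71511752, Cd93 at chr2:148436640-148443563 and Aplnr at chr2:85136225-85139923, all protein coding.

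Genes of MHC class II, the antigen display complex read by helper T cells, formed a further difference. All 3 members of the list that could be tested, H2-Aa, H2-Ab1 and the invariant chain Cd74, were higher in general capillary cells. Among all genes tested 6.46% were higher. H2-Ab1 was at 365, 84.2, 178 and 238 CPM against 120, 25.3, 54.98 and 82.2 CPM in aerocytes, higher in each of the 4 mice (log2 difference 1.63 ± 0.15, adjusted p = 6.47e-06). At 1000 UMIs per cell H2-Ab1 was found in 18.7%, 11.1%, 20.8% and 23.6% of members and in 6.98%, 3.45%, 3.92% and 7.14% of aerocytes. Cd74 was at 1432, 74.5, 244 and 566 CPM, and 1 cell of placebo 1 held 72.6% of that mouse's Cd74 UMIs. Without the marked cells the log2 differences were 1.60 for Cd74 and 1.72 for H2-Ab1, both called. B cells, which carry these transcripts, had a Cd74 UMI in 98.7% to 99.6% of cells, and the part of free RNA in the members' counts was not tested.

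Leukocyte adhesion genes went the other way by edgeR, with 6 of 9 tested lower and none higher. For this and the lists below, 6.46% of all genes tested were higher and 6.26% lower. Cd34, a sialomucin of capillaries, was at 148, 185, 244 and 185 CPM against 491, 535, 628 and 662 CPM (log2 difference -1.60 ± 0.12, adjusted p = 1.85e-06), and Icam1 and Icam2, ligands of leukocyte integrins, differed by -1.38 and -1.04. Of 7 lipid handling genes none was higher and 1 lower, Fabp4, which ranged from 5.29 to 514 CPM and from 8.43 to 4737 CPM over the mice of the classes (-3.11 ± 0.80, adjusted p = 0.0190). Its UMIs lay in 3, 2, 8 and 1 members and in 3, 3, 9 and 3 aerocytes, with 142 of the 144 UMIs of placebo 1 aerocytes in a single cell. Cd36, the fatty acid translocase, was at 1560 to 1969 CPM against 1868 to 2382 CPM (log2 difference -0.26 ± 0.10, adjusted p = 0.133), and Pltp was at 3093 to 3572 against 3474 to 3852 CPM (adjusted p = 0.505). Basement membrane and matrix genes were called higher in 8 of 18 and lower in 2, with the laminin receptor Itga6 at 207 to 309 CPM against 77.8 to 137 CPM (log2 difference 1.26) and the inhibitor Timp3 lower (-1.01). All 12 mitochondrially encoded genes tested were higher, by a median of 0.63. The median mitochondrial share of a cell's UMIs was 1.66%, 2.26%, 1.76% and 1.90% in members and 1.13%, 1.30%, 1.26% and 1.45% in aerocytes. The part of cell quality and depth in this difference was not tested. Heat shock genes were lower in 4 of 16, led by Hspb1 (-1.67).

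Several of the 12 largest differences in the higher direction lay in few cells. Ccl21a, for which near-identical gene copies make the assignment uncertain, was at 238 to 797 CPM in general capillary cells and 0 in all 4 aerocyte sums, and its UMIs came from 4, 4, 5 and 1 cells. Mmrn1 UMIs came from 5, 4, 5 and 2 cells. Neither gene was left to test without the marked cells. Both belong to the genes that marked those cells, so that fit is no check of them. Hbb-bs, a haemoglobin chain of red cells with near-identical copies, was at 13218, 8943, 3805 and 16186 CPM, and in placebo 2 a single cell held 99.0% of it. In cells of 2000 to 8000 UMIs it was not called. Lyve1, often taken as lymphatic but not used to mark cells, did not lie in few cells. It was found in 32.0%, 52.5%, 40.8% and 40.6% of members. Without the marked cells it stayed higher than in aerocytes (log2 difference 1.14, against 1.39 with them).

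**Figure D3:**
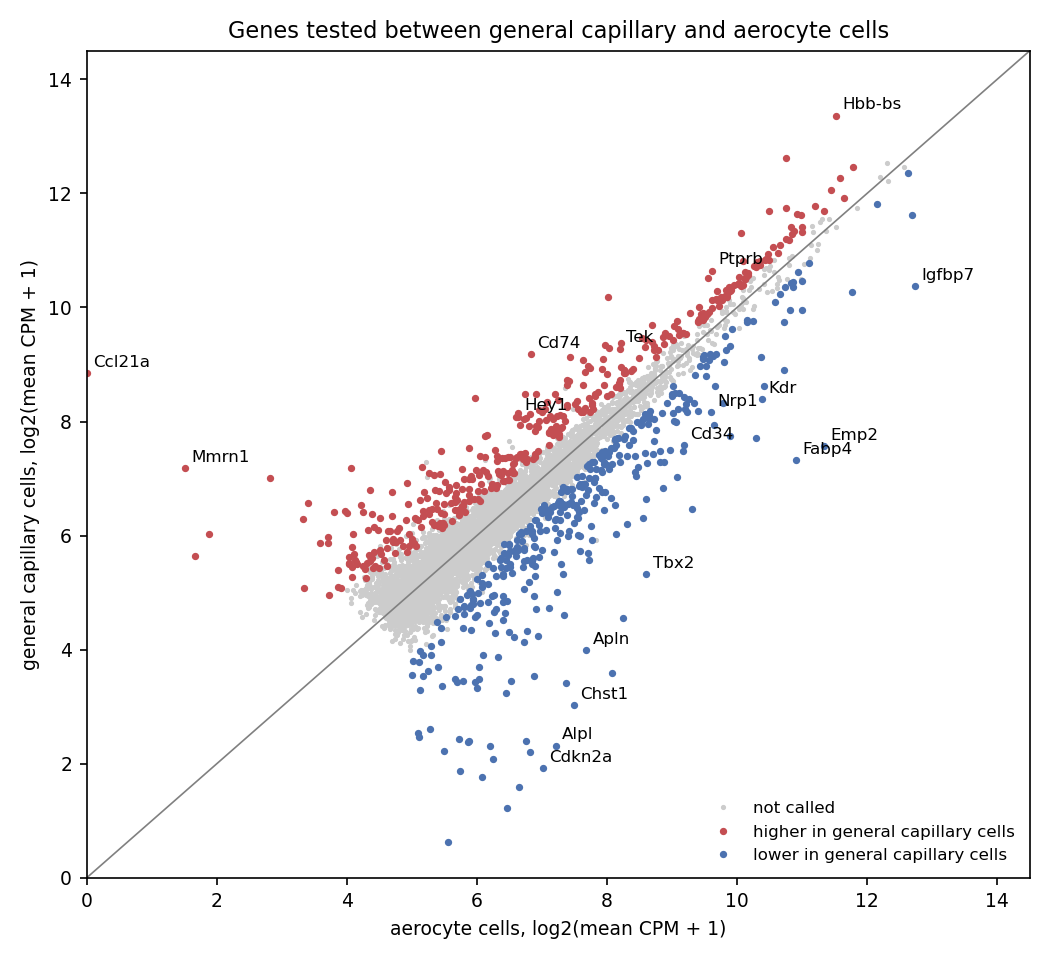
Mean level of each of 5963 genes over 4 mice in aerocyte cells (horizontal axis) and general capillary cells (vertical axis), both as log2(CPM + 1), with genes called higher in red and lower in blue. Igfbp7, Emp2, Kdr and Tbx2 lie far below the diagonal, and Ccl21a and Mmrn1, whose UMIs lay in few cells, lie far above it.

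Large-vessel cells, gated by at least 2 Vwf UMIs or a Gja5 UMI, numbered 39, 24, 35 and 18. Against them 147 of 4182 genes tested (3.52%) were higher in general capillary cells and 198 (4.73%) lower, by the same test. Venous markers were lower in 6 of 7, with Car8, a carbonic anhydrase relative, at 0 to 3.13 CPM against 90.9 to 373 CPM and Prss23 at 210 to 319 CPM against 591 to 1957 CPM (log2 difference -2.22 ± 0.23, adjusted p = 0.000288). Vcam1, the adhesion molecule of inflamed and venous endothelium, was at 35.0, 9.39, 14.8 and 40.6 CPM against 216, 104, 158 and 432 CPM (-3.08 ± 0.23, adjusted p = 3.63e-05). Procr, the protein C receptor, and Nos3, the endothelial nitric oxide synthase, differed by -2.88 and -2.82. Cytl1, a secreted cytokine-like protein, was at 0, 0, 2.11 and 0 CPM in general capillary cells against 751, 81.2, 874 and 784 CPM.

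On the capillary side, 6 of 19 general capillary markers were higher than in large-vessel cells and none lower. Among all genes tested 3.52% were higher and 4.73% lower. Glp1r was at 271, 313, 274 and 289 CPM against 90.0, 110, 141 and 90.9 CPM (log2 difference 1.38 ± 0.18, adjusted p = 0.00143), and Sema3c, Bmp6 and Tmem100 differed by 1.31, 1.03 and 0.62. Glp1r, Bmp6, Itga1 and Sema3c were thus higher than in both other classes. Ptprb and Tek were not among them: Ptprb was at 1405 to 1721 CPM against 1651 to 2465 CPM (-0.37 ± 0.12, adjusted p = 0.0813) and Tek at 552 to 670 against 273 to 505 CPM (adjusted p = 0.226). Fatty acid and phospholipid carriers Cd36 (0.67) and Pltp (0.75), the collagen chains Col4a1 (0.82) and Col4a2 (0.97), the platelet growth factor chain Pdgfb (1.29) and the adrenergic receptor Adrb1 (1.73) were also called higher. Fibroblast markers were lower in 11 of 12 and platelet markers in 6 of 6 tested, and their summed levels in large-vessel cells reached 17444 and 5478 CPM, against 2644 and 1335 CPM in general capillary cells, and the part of this RNA in the lower calls was not tested. Without such cells in either class 175 and 197 of 3112 genes were called. The counts moved with depth, to 18 higher and 58 lower of 2224 in cells of 2000 to 8000 UMIs, and leaving out placebo 1 gave 43 and 81 and leaving out placebo 2 gave 66 and 122.

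The comparison of treatments asked whether the members' transcripts differ with tamoxifen. Of 6030 genes tested 0 were called by edgeR (0% of genes) and 0 by DESeq2. At an unadjusted p under 0.05 there were 109 higher (1.81%) and 72 lower (1.19%), 3.00% in all. Leaving out placebo 1, placebo 2, tamoxifen 1 or tamoxifen 2 gave 4, 3, 25 and 10 calls, so the count of 0 does not show that the groups are equal. The p-values measure the spread between 2 mice a group.

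The oestrogen receptor gene Esr1 had 0 UMIs in the members of all 4 mice, where 3 UMIs, the limit a count of 0 allows, would be 5.45, 9.29, 6.61 and 15.1 CPM. Its target Pgr had 4, 1, 1 and 0 UMIs and Greb1 1, 1, 0 and 0. Ebp was at 76.0 and 79.4 CPM with placebo and 64.4 and 67.1 CPM with tamoxifen (log2 difference -0.24 ± 0.27), and the 8 tested genes of cholesterol synthesis had a median of -0.05. Identity genes were not called. Cd93, at 999 and 1188 CPM with placebo against 942 and 1099 CPM with tamoxifen, is a gate gene that stayed in this test. The choice of cells sets its level in part, so it is no check of identity. Tek, which the gate did not use, was at 557 and 591 against 592 and 681 CPM. The 19 markers outside the gate had a median of -0.01. Of these, 2 had both tamoxifen mice above the placebo mice and 4 had both below. Over all genes 15.7% and 15.8% had their groups apart in these directions.

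Several genes of lowest p lay in few cells, and none passed the adjusted threshold. Ube2c, an enzyme of mitotic exit, was at 8.84 and 15.9 CPM with placebo and 88.0 and 87.7 CPM with tamoxifen (log2 difference 2.90 ± 0.42, edgeR adjusted p = 0.414). Its UMIs lay in 4, 2, 4 and 5 cells, and a single cell held 29 of 41 in tamoxifen 1 and 12 of 17 in tamoxifen 2. Clec3b, tetranectin, was at 44.2 and 25.4 against 270 and 108 CPM (2.45 ± 0.45, adjusted p = 0.587), with 67.5% and 76.2% of the tamoxifen UMIs in the top cell of each mouse. Gsn (gelsolin) was at 334 and 98.5 against 1284 and 485 CPM (2.01 ± 0.54), with 73.6% and 93.6% in the top cell. Ogn, Npnt and Mbd1 had 63.2%, 48.4% and 63.7% of the tamoxifen 1 UMIs in the top cell.

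Spread over more cells were Cebpb, a transcription factor of acute responses, at 198 and 156 against 352 and 444 CPM (log2 difference 1.14 ± 0.23, adjusted p = 0.587), seen in 25, 19, 33 and 13 cells, and Tsc22d1, at 193 and 197 against 298 and 428 CPM (0.88 ± 0.24). In the lower direction, among the 12 genes of lowest p with a mean of at least 50 CPM, Prickle1 had the largest difference (-1.34). Cyyr1, a membrane protein, was at 817 and 896 CPM with placebo and 614 and 532 CPM with tamoxifen (-0.57 ± 0.19, unadjusted p = 0.0143). Pde9a, a phosphodiesterase of cyclic GMP, was at 97.2 and 149 against 58.0 and 67.1 CPM (-0.97 ± 0.31), Samd12 at 81.3 and 88.9 against 36.5 and 36.1 CPM (-1.21 ± 0.30), and Ptprg, a receptor phosphatase, at 170 and 203 against 112 and 129 CPM (-0.64 ± 0.24). Both tamoxifen mice were below both placebo mice for all 12 of these lowest-p genes, a feature the choice by p brings with it.

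**Figure D4:**
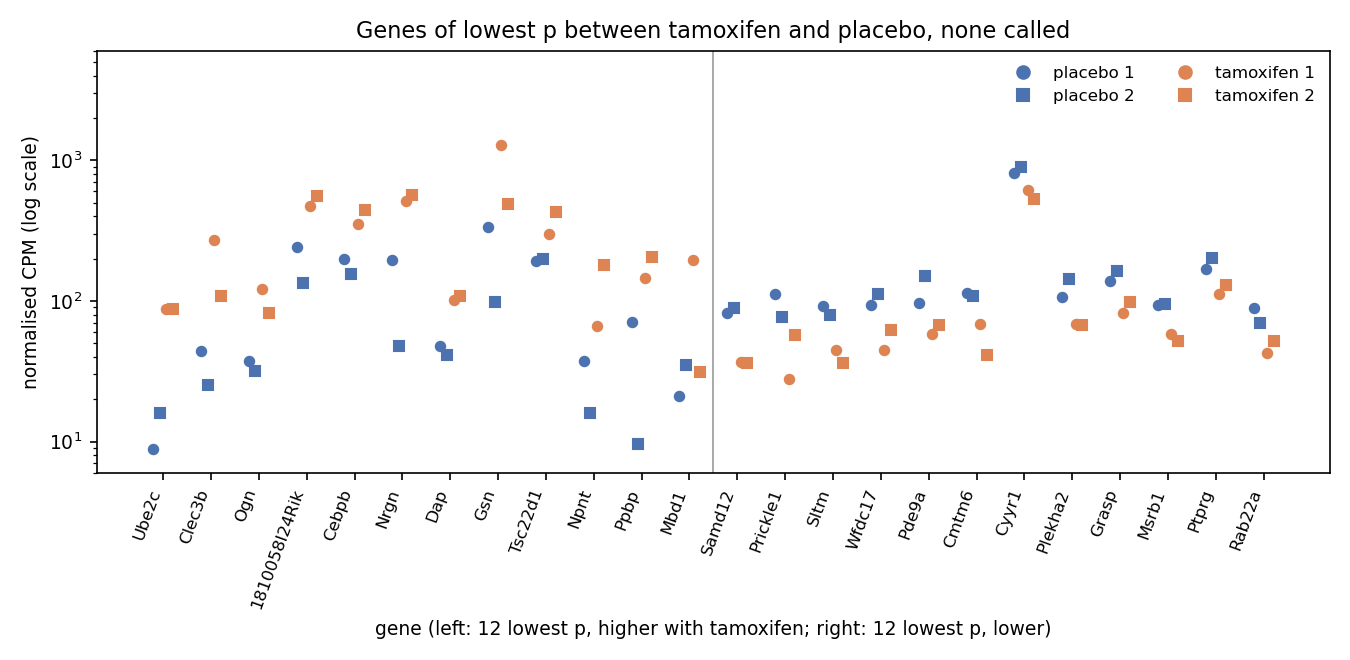
Normalised CPM (log scale) of the 24 genes of lowest p in general capillary cells, 12 higher with tamoxifen on the left and 12 lower on the right, 1 point a mouse. None passed the adjusted threshold, and Mbd1 is the gene whose groups overlap, at 195 and 30.97 CPM with tamoxifen.

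By list, response genes had medians above zero with tamoxifen, with no gene called. Of 25 immediate early genes, which also answer to tissue digestion, 10 had both tamoxifen mice above both placebo mice and 1 had both below, with a median log2 difference of 0.34 against -0.00362 over all genes. Dusp1, a phosphatase of stress kinases, was at 967 and 638 CPM with placebo and 1161 and 1424 CPM with tamoxifen (0.68 ± 0.23, unadjusted p = 0.018), seen in 120, 64, 96 and 51 cells. Atf3 was at 38.9 and 34.9 against 105 and 51.6 CPM (1.18 ± 0.38), seen in 14, 5, 23 and 4 cells, with 7 of 11 UMIs of placebo 2 and 7 of 10 of tamoxifen 2 in a single cell. Among 16 heat shock genes 6 were apart upward and none downward (median 0.29), among 23 interferon genes 6 and none (0.19), and among 16 inflammatory genes 4 and none (0.24). Over all genes 15.7% were apart upward and 15.8% downward. Nfkbia, the inhibitor of NF-kB, was at 819 and 686 against 1018 and 1125 CPM (0.50 ± 0.19, unadjusted p = 0.0251), and Cxcl12 at 329 and 292 against 380 and 645 CPM (0.70 ± 0.27). Without the marked cells the medians were 0.37 for immediate early, 0.26 for heat shock and 0.22 for interferon genes. The part of digestion time in these differences was not tested.

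The platelet and fibroblast marker lists had the highest medians, with no gene called. All 6 platelet genes tested were apart upward (median 1.99). The list's summed level was 460 and 83.7 CPM with placebo against 1105 and 1335 CPM with tamoxifen, although cells with at least 3 platelet genes were 15 and 2 against 3 and 7. Pf4 UMIs lay in 19, 1, 3 and 8 members of the 4 mice and Nrgn UMIs in 22, 4, 8 and 9. In tamoxifen 1 a single cell held 57 of 81 Pf4 UMIs and 145 of 240 Nrgn UMIs. In tamoxifen 2 the top cell held 22 of 66 and 24 of 110. Of the 10 platelet genes, 0, 2, 0 and 0 had no UMI in the members of the 4 mice. The 11 fibroblast genes tested had a median of 1.18, with 5 apart upward and 1 downward, and summed levels of 1351 and 911 against 2644 and 1851 CPM. Of all genes 15.7% were apart upward and 15.8% downward. Without the marked cells, 1 gene of each list was left to test, with log2 differences of 0.07 and 0.03. Genes of these same lists marked the cells left out, so that fit is no check of the 2 medians. The part of platelet and fibroblast RNA in the other lists was not tested beyond the medians given for them without the marked cells. Medians near zero were found for shear stress and vascular tone (median -0.04), VEGF and apelin signalling (-0.09), lipid handling (-0.08) and MHC class I (-0.03).

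**Figure D5:**
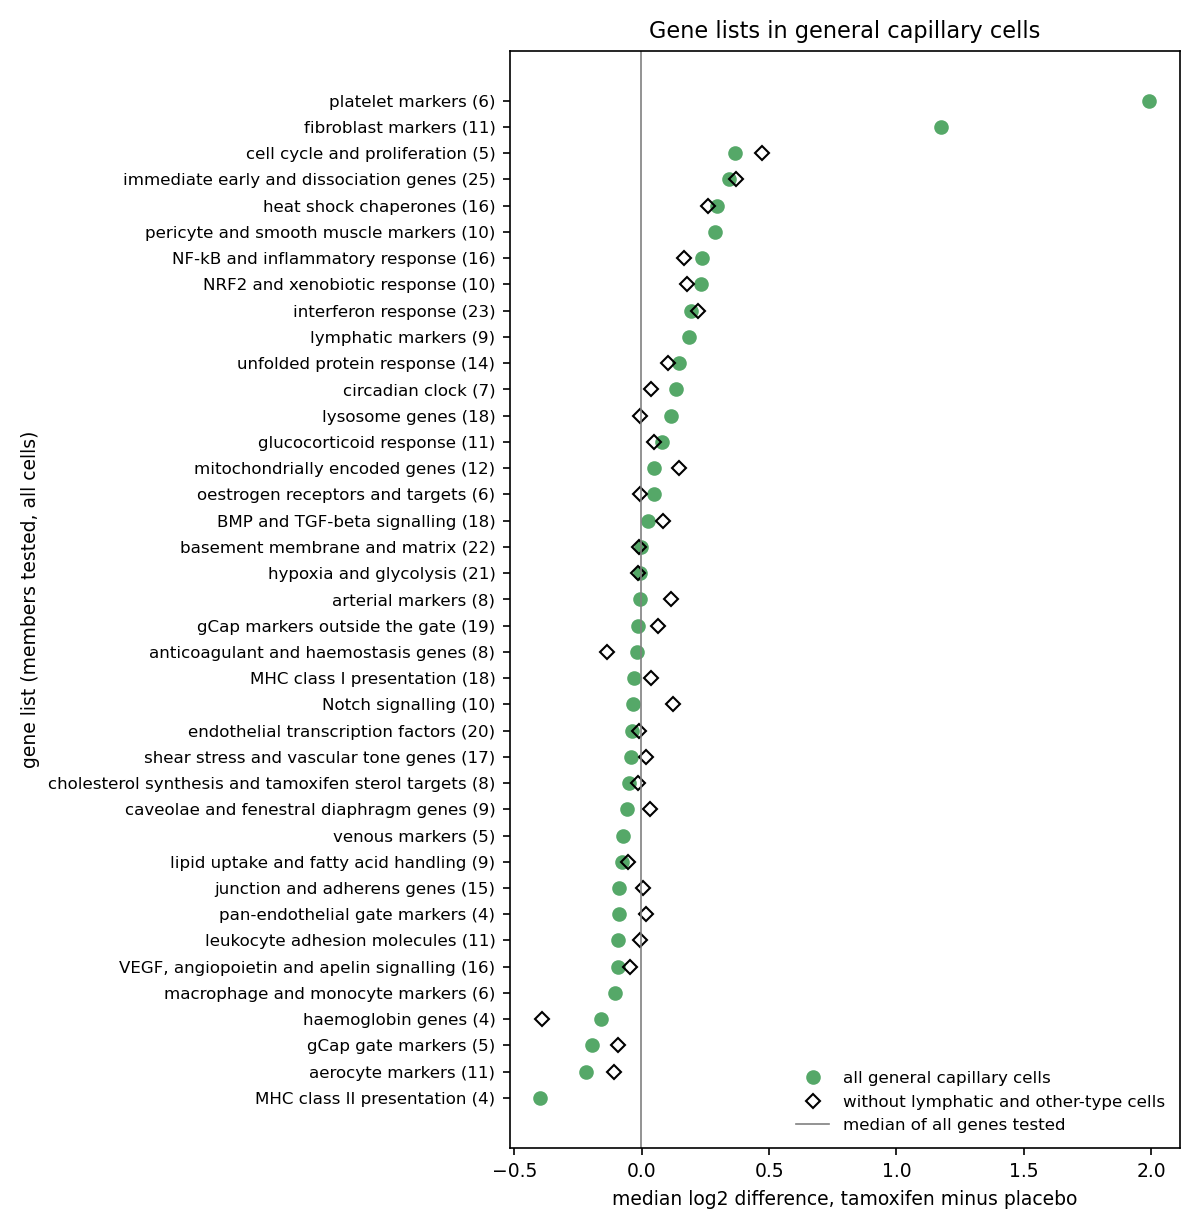
Median log2 difference between tamoxifen and placebo (horizontal axis) of each gene list with at least 4 genes tested, in all general capillary cells (green) and without lymphatic and other-type cells (open diamonds, where 4 or more genes were left). Platelet and fibroblast markers sit at 1.99 and 1.18 and have no diamond, and immediate early genes sit at 0.34 and 0.37.

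Tamoxifen effects were also set against those in the other classes, with an interaction term. Between general capillary cells and aerocytes 3 of 6978 genes were called (0.0430%, with 3.94% at an unadjusted p under 0.05), and between general capillary and large-vessel cells 2 of 5169 (0.0387%, with 3.77%). Rgcc, a regulator of the cell cycle and of capillary growth, was at 55.8, 45.5, 94.1 and 42.4 CPM in general capillary cells of the 4 mice, and at 17.3 and 24.04 CPM with placebo against 441 and 427 CPM with tamoxifen in aerocytes. The treatment groups overlapped in the members and lay apart in the aerocytes. Among aerocytes 6 of 91 and 9 of 92 cells carried it with placebo, and 12 of 54 and 4 of 44 with tamoxifen. Pf4, a platelet chemokine, and Nrgn, a calmodulin-binding protein also made by platelets, were the others called against aerocytes, and Lyz2 (lysozyme) and Acta2 (smooth muscle actin) were those called against large-vessel cells. Leaving out each mouse in turn gave 42, 23, 22 and 11 calls against aerocytes and 23, 49, 0 and 11 against large-vessel cells. Without the marked cells Rgcc (-2.17) and Nrgn (2.06) were tested and not called, and Pf4, Lyz2 and Acta2 were not left to test. Pf4, Nrgn and Acta2 belong to the genes that marked those cells, so that fit is no check of them. Lyz2 is on the macrophage list but was not used to mark cells.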

How the data were processed

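Single-cell RNA libraries of 4 mouse lungs, 2 with placebo and 2 with tamoxifen pellets, were analysed from raw UMI counts per gene and barcode, which the authors deposited unnormalised and unpooled, with 32285 genes a matrix. Cell Ranger is given as 5.0.0 per the file headers and as 8.0.1, with mm10, per the submitters' processing notes, a conflict left unresolved here. Whether ambient RNA or doublets were removed before deposit is not given in the sources used here.

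Cells with at least 250 genes, at most 15% mitochondrial UMIs and under 50% haemoglobin UMIs were kept. General capillary, aerocyte and large-vessel cells were gated on UMIs and summed per mouse, the replicate. B cells had UMIs for at least 2 genes of a B cell marker set. Sums were tested with edgeR 4.0.16 in R 4.3.3 (TMM scaling, filterByExpr, quasi-likelihood test, Benjamini-Hochberg adjusted p under 0.05 over all genes tested), with the mouse as a block between classes, since both classes come from the same animal. Gate genes were left out of the tests between classes and stayed in the treatment test. Shares used exact permutation tests over mice and Clopper-Pearson 95% intervals, which cover counting error only, in scipy 1.17.1 under Python 3.11.15. The limit that a count of 0 allows was set at 3 UMIs. Doublet scores came from Scrublet in scanpy 1.11.5 and removed no cell in the main analysis. The scripts were tested on simulated data with a set spread between samples. There the treatment test recovered 4 of 100 genes changed 2-fold and 70 of 100 changed 4-fold, with 5 false calls.

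The rule for naming genes took the 12 lowest p in each direction with a mean of at least 50 CPM for treatment, the 12 largest called differences in each direction for classes, every called interaction, and of each list described the 3 highest and the 2 of lowest p. The text names only part of the genes this rule gives, and some list members outside it, both chosen after their values were seen. Members and all 47 gene lists were chosen with earlier results of these data known. Alternatives were DESeq2 1.42.0, other scaling, filters, gates, depth and cells, and each mouse left out. The fits without lymphatic and other-type cells, within 2000 to 8000 UMIs, and with each mouse left out of the interactions were added after seeing the data.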

Additional observations from a re-analysis of the deposited data

Results flagged for a closer look

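The tamoxifen difference of 5 genes was not the same in general capillary cells as in another endothelial class of the same mice, by an interaction term in edgeR's quasi-likelihood test. Values run in the order placebo 1, placebo 2, tamoxifen 1, tamoxifen 2. Rgcc had an interaction of -3.87 on the log2 scale against aerocytes (adjusted p = 0.0234): general capillary sums held 55.8, 45.5, 94.1 and 42.4 CPM and aerocyte sums 17.3, 24.04, 441 and 427 CPM, and in tamoxifen 2 a single aerocyte held 64.6% of the UMIs. Pf4 had an interaction of 5.01, with 88.1, 3.25, 177 and 350 CPM against 102, 18.4, 2.90 and 21.6 CPM. Nrgn had an interaction of 2.94 (adjusted p = 0.0428), with 198, 48.7, 525 and 583 CPM against 121, 29.7, 26.1 and 69.1 CPM, and in tamoxifen 1 a single member held 60.4% of its UMIs.

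Against large-vessel cells, Lyz2, lysozyme of myeloid cells, had an interaction of -3.45, with 171, 213, 95.4 and 332 CPM in general capillary cells against 39.9, 57.9, 359 and 687 CPM. Acta2 had an interaction of 10.40, with 644, 28.2, 998 and 0 CPM against 638, 0, 0 and 0 CPM, and its UMIs lay in 3, 1, 3 and 0 members. Large-vessel sums with no Acta2 UMI set the size of that value, which is no measure of a fold. Without tamoxifen 1 the Acta2 value was -0.19, and the large-vessel interaction had 0 calls when the mouse was not a block. After cells with lymphatic or other-type genes were left out, Rgcc (-2.17) and Nrgn (2.06) were tested and not called, and the other genes were not left to test. Pf4, Nrgn and Acta2 belong to the genes that marked those cells, so that fit is no check of them. Lyz2 was not used to mark cells.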

How the results depend on the processing

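Called genes for treatment numbered 0 in the reported fit and also with DESeq2, upper-quartile scaling, a stricter gate, stricter quality limits, under 5% haemoglobin, equal cells per mouse and after removal of doublet-scored, lymphatic or other-type cells. They numbered 37 with no filter on low counts and 3 to 25 with a mouse left out, where the lone mouse of an arm is assumed to vary like the others. A replicate block on the label numbers gave 3 calls (Gsn, Clec3b and Ube2c). The numbers are not shown to pair the mice, and placebo and tamoxifen mice are different animals. Deviations of same-numbered mice from their group means correlated at r = 0.1425 across genes, with 2 pairs. The crossed value of -0.1425 follows from it, since with 2 mice a group the deviations are equal and opposite. Against aerocytes the 758 calls became 407 with DESeq2 and 453 to 688 with a mouse left out, and 567 with no replicate block. Between classes and for the interactions, no replicate block means that the mouse was not a block, and the label numbers were not used. Against large-vessel cells the 345 calls became 164 with DESeq2, 681 with no filter, 212 with no replicate block, 76 in cells of 2000 to 8000 UMIs and 124 to 308 with a mouse left out. The interaction with aerocytes gave 48 calls with no filter, 1 with no replicate block and 11 to 42 with a mouse left out. The interaction with large-vessel cells gave 54, 0 and 0 to 49 under the same changes and 11 without other-type cells. The cause of these moves was not tested. The treatment difference in the share of kept cells, -0.403 percentage points, ranged from -0.839 without tamoxifen 1 to 0.0327 without tamoxifen 2, and the Acta2 interaction was -0.19 without tamoxifen 1. Other scaling moved the median of all genes by at most 0.02 on the log2 scale. Depth limits the members most in tamoxifen 2, with 69 cells and 199314 UMIs, where a gene with no UMI may be at up to 15.1 CPM.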

Other observations

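Members with at least 3 genes of a proliferation list numbered 6, 5, 9 and 4 in placebo 1, placebo 2, tamoxifen 1 and tamoxifen 2, or 5.38% of the 446. Against aerocytes, general capillary cells had 6 of 15 tested genes of shear stress and vascular tone higher and 2 lower by edgeR at an adjusted p under 0.05, where 6.46% of all genes tested were higher and 6.26% lower. Those higher included Edn1, the natriuretic peptide receptors Npr1 and Npr3 (log2 difference 1.00 for Npr3), the prostacyclin synthase Ptgis and both subunits of soluble guanylate cyclase, Gucy1a1 and Gucy1b1, and Klf4 (-0.57) and Ramp2 (-0.29) were lower. Of 20 endothelial transcription factors 4 were higher, with Foxo1 at 1.19, and 4 lower, with Tbx3 at -1.65 and Meox1 at -1.36. Of 21 interferon genes 4 were higher and none lower, with Ifitm3 at 0.99 and Gbp2 at 1.41.

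Lyve1 was seen in more large-vessel cells (74.4%, 87.5%, 74.3% and 55.6%) than members (32.0%, 52.5%, 40.8% and 40.6%) in each mouse, with median depths of 4168, 3871, 5397 and 3985.5 UMIs against 2839, 2412, 2721 and 2054. At 1000 UMIs a cell the shares were 50%, 68.2%, 45.5% and 30.8% against 20.3%, 25.0%, 28.1% and 30.9%, the last pair not apart.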
